A study of Mus musculus with 67 samples.

Results

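Gene expression was compared in forelimb buds that lack *Gli3*, between E9.25 (21 to 23 somites) and E10.5 (32 to 35 somites). The 7 libraries were chosen by their sample labels, 4 of whole E9.25 *Gli3*-/- forelimb buds and 3 of the anterior part of E10.5 *Gli3*-/- forelimb buds, out of 14 RNA-seq libraries and 67 samples in the series. Both *Gli3*-/- groups were homozygous for Xt-J, a deletion allele that makes no functional GLI3, on a Swiss Webster background. Each library was a pool, of about 4 pairs of buds at E9.25 and of 2 pairs at E10.5 by the sample labels, while the study's methods give about 4 pairs for each replicate and buds from several litters. The study places E9.25 before the onset of Hedgehog (HH) signalling in the limb and E10.5 after it. Stage, region (whole bud or anterior part) and pool size changed together, so that they cannot be told apart. The 7 WT libraries (3 of E9.25 whole buds and 4 of E10.5 anterior buds, same background) were used to test where the change differed between genotypes.

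Sonic hedgehog is secreted by the posterior margin of the bud, the zone of polarizing activity, and sets the pattern from anterior to posterior. Cells that lack the ligand process GLI3 into a repressor, which holds HH target genes off in the anterior bud, and the ligand relieves this repression. The bud itself starts as an outgrowth of lateral plate mesoderm under an ectodermal ridge that secretes FGFs, and it is then invaded by muscle progenitors, vessels and nerves while its mesenchyme condenses into cartilage and tendon.

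Expression is given as TPM, a transcript level scaled by gene length and by the total of the library, in the order of the replicate numbers. Differences are E10.5 minus E9.25 in mean log2(TPM + 1), on which limma was run, and they understate the change of low genes. *Gli3* (chr13:15463235-15730026, mm10) was listed at 14.3, 20.6, 20.8 and 19.1 TPM in the E9.25 *Gli3*-/- libraries and at 40.9, 40.3 and 38.7 TPM at E10.5, against 44.2, 15.8 and 44.6 TPM and 84.3, 73.4, 89.7 and 79.1 TPM in WT libraries of the same stages. The tables give 1 value for the whole gene, so that transcript from outside the deleted part is counted, and this gene does not check the labels. E9.25 WT replicate 2 was within the range of the *Gli3*-/- libraries. That library also had the fewest genes with at least 1 TPM, 13276, where E9.25 WT replicates 1 and 3 had 14584 and 14162. Its summed collagen level was 224 TPM, where theirs were 624 and 480 TPM. The forelimb factor *Tbx5*, named after its values were seen, was at 32.5 to 60.6 TPM and 56.3 to 76.1 TPM in the *Gli3*-/- groups. The limb mesenchyme gene *Prrx1*, also named afterwards, was at 79 to 114 and 169.5 to 181 TPM. Estimated depth was 39.2 to 56.8 M reads per E9.25 library and 40.8 to 54.2 M reads per E10.5 library. The median SD of a gene was 0.23 on the log2(TPM + 1) scale among the E9.25 libraries and 0.13 among the E10.5 libraries. No source says whether pools of a group shared litters, and p-values measure the spread between these pools.

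A large share of the transcriptome differed between the *Gli3*-/- groups. Of 15434 genes tested, 2437 (15.8%) were higher at E10.5 and 1416 (9.17%) were lower at an adjusted p under 0.05, 25.0% in all. The counts of gene lists below are to be read beside these shares. The 12 named genes that rose most were led by 5′ Hox genes and by mesenchymal transcription factors of the outgrowing limb. Those that fell most were led by regulators of lateral plate and flank mesoderm, by HoxB and HoxC genes and by an enzyme of retinoic acid synthesis. Of these, 715 of the higher and 457 of the lower genes had an absolute log2 difference of at least 1. The libraries of the 2 stages did not overlap for 35.7% of the genes tested, 3776 of which had passed. The higher share of 63.2% among called genes came to 51.7% with quantile normalization, 50.6% with median-of-ratios size factors and 45.9% after centring on the median gene, so that no surplus of rises over falls is read from these counts.

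**Figure D1:**
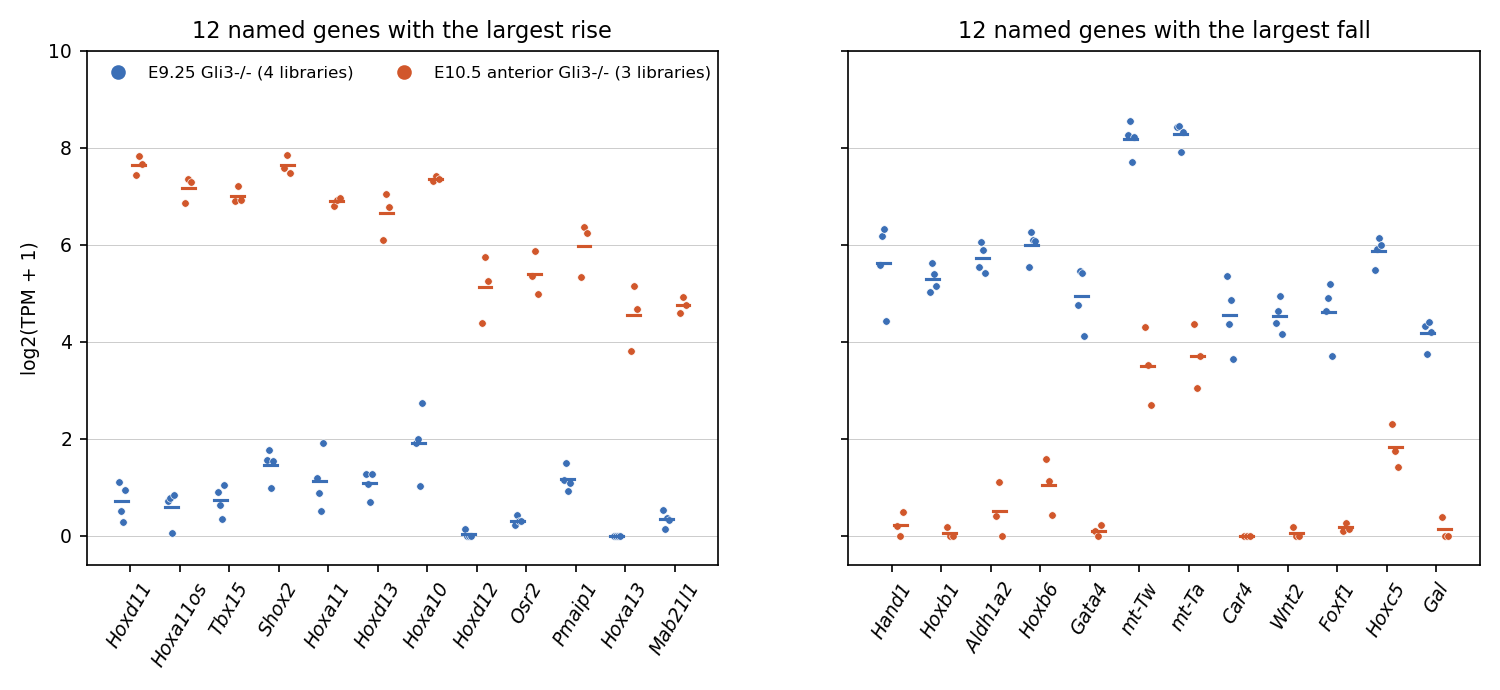
Level of the 12 named genes with the largest rise (left) and the largest fall (right) in each *Gli3*-/- library. The y axis is log2(TPM + 1), points are libraries, bars are group means, and the points of the 2 stages do not overlap for any of the 24 genes.

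*Hoxd11* had the largest difference of all named genes. It was at 1.16, 0.43, 0.215 and 0.908 TPM in the 4 E9.25 libraries and at 173, 226 and 201 TPM in the 3 E10.5 libraries, a log2 difference of 6.93 ± 0.20 (SE, limma, adjusted p = 3.48e-08). *Tbx15*, a T-box factor of limb mesenchyme, went from 0.869, 0.56, 0.272 and 1.07 TPM to 118, 146 and 121 TPM. *Shox2*, which is needed for the proximal skeleton of the limb, was at 1.97, 2.4, 0.962 and 1.9 TPM and then at 191, 231 and 176 TPM. All 3 genes were below 3 TPM in every E9.25 library and above 100 TPM in every E10.5 library. *Osr2*, an odd-skipped factor of connective tissue and joints, rose by 5.09 from between 0.157 and 0.336 TPM to between 30.8 and 57.4 TPM. *Mab21l1* rose from between 0.094 and 0.442 TPM to between 23.2 and 29.1 TPM, and *Pmaip1*, which encodes the proapoptotic protein NOXA, from between 0.902 and 1.8 TPM to between 39.3 and 81.1 TPM.

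Among the falls, *Hand1*, a basic helix-loop-helix factor of lateral plate mesoderm and its derivatives, was at 47, 71.6, 79.1 and 20.6 TPM at E9.25 and at 0.15, 0 and 0.399 TPM at E10.5, a difference of -5.40 ± 0.39 (SE, adjusted p = 6.85e-06). *Aldh1a2* encodes the main enzyme of retinoic acid synthesis in the trunk mesoderm. Its level went from 45.4, 65.3, 58.6 and 41.7 TPM to 0.316, 1.14 and 0 TPM. *Gata4* and *Foxf1*, further regulators of lateral plate mesoderm, fell by 4.83 and 4.44. *Wnt2*, a Wnt ligand, was at 19.9, 23.8, 29.7 and 16.9 TPM and then at 0.128, 0 and 0 TPM. *Car4*, a membrane carbonic anhydrase, was at 40.1, 19.6, 27.9 and 11.4 TPM and was listed at 0 in all 3 E10.5 libraries. The mitochondrial tRNA genes *mt-Tw* and *mt-Ta* also came among the 12 largest falls of named genes, but they are shorter than a 100-base read and their values are uncertain. In these bulk pools, fewer cells of a type and less RNA per cell cannot be told apart.

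The Hox genes encode homeodomain factors that lie in clusters and are used in the order of their position, from the 3′ end (low numbers) to the 5′ end (high numbers), as the limb grows out. In the HoxD cluster, 4 of 9 genes rose (44.4%, beside 15.8% of all genes) and 2 fell (22.2%, beside 9.17%). The 4 that rose were the 5′ genes *Hoxd10* to *Hoxd13* and the 2 that fell were the 3′ genes *Hoxd1* and *Hoxd3*. *Hoxd12* had at least 1 TPM only in the 3 E10.5 libraries and was tested through them, so that its place in this count is no separate support. Without E10.5 replicate 1, 2 or 3, 8 could be tested and 3 rose. *Hoxd10* (chr2:74691924-74695105) rose from 6.15, 8.18, 4.51 and 14.5 TPM to 140.0, 140.2 and 137 TPM. *Hoxd12* (chr2:74675013-74677705) was listed at 0.106, 0, 0 and 0 TPM at E9.25 and reached 20, 52.5 and 37.2 TPM. *Hoxd13* (chr2:74668310-74671599), the digit-forming gene at the 5′ end, went from 1.42, 1.09, 0.628 and 1.43 TPM to 67.7, 132 and 109 TPM, a log2 difference of 5.57 ± 0.23 (SE, adjusted p = 2.41e-07). In the middle of the cluster, the differences were -0.43 for *Hoxd4*, -0.24 for *Hoxd8* and 0.33 for *Hoxd9*, none of which passed the test (adjusted p = 0.121, 0.339 and 0.321). At the 3′ end, *Hoxd1* fell by 3.47 from between 11.7 and 17.8 TPM to between 0.193 and 1.08 TPM and *Hoxd3* by 2.36 from between 12.4 and 18.8 TPM to between 1.91 and 2.56 TPM.

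The HoxA cluster changed in the same order, with 5 of 10 genes higher, 4 lower and 1 that did not pass. *Hoxa2* to *Hoxa5* fell, with log2 differences of -1.92 for *Hoxa2*, -0.74 for *Hoxa3*, -2.64 for *Hoxa4* and -1.63 for *Hoxa5*. *Hoxa7* was at 14.7 to 38.7 TPM and 18.3 to 26.2 TPM and is the member that did not pass (adjusted p = 0.905). *Hoxa6*, *Hoxa9* and *Hoxa10* rose by 1.22, 2.65 and 5.44. *Hoxa11* (chr6:52242106-52245810), which patterns the forearm segment, went from 1.27, 0.834, 0.419 and 2.78 TPM to 110.2, 120.0 and 124 TPM. *Hoxa13* (chr6:52257694-52260880), which marks the hand plate, was listed at 0 in all 4 E9.25 libraries and was at 13, 34.6 and 24.6 TPM at E10.5 (adjusted p = 2.07e-06). The antisense transcript *Hoxa11os* rose with *Hoxa11*, from between 0.034 and 0.775 TPM to between 116 and 163 TPM. Their annotated spans share 1418 bases on opposite strands, of 3705 and 5407, and no source states that reads were assigned by strand, so that reads from that stretch cannot be told apart. The values of *Hoxa3*, *Hoxd3* and *Hoxd4* are uncertain too, since their annotated spans overlap neighbouring Hox genes on the same strand. The call of *Hoxa3* was also lost without E9.25 replicate 3 (adjusted p = 0.0516) and without E10.5 replicate 1, 2 or 3 (adjusted p = 0.0567, 0.0540 and 0.0947).

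The promoters of 4 genes toward the 5′ ends of HoxD and HoxA, chosen after their values were seen, are shown as the stretch of 100 bases before the start of transcription, 5′ to 3′ on the strand of the gene (RefSeq, GRCm38.p6), with each CCAAT motif in capitals. The stretches are those of *Hoxd11* (chr2:74679458-74679557, plus strand, the more upstream of 2 listed starts), *Hoxd12* (chr2:74674913-74675012, plus strand), *Hoxa11* (chr6:52245811-52245910, minus strand) and *Hoxa13* (chr6:52260881-52260980, minus strand).
Hoxd11: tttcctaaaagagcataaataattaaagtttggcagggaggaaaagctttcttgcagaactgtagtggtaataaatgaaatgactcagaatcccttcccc
Hoxd12: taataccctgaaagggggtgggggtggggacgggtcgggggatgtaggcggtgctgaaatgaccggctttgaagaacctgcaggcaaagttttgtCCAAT
Hoxa11: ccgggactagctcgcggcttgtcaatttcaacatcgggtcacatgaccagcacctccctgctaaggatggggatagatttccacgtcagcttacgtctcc
Hoxa13: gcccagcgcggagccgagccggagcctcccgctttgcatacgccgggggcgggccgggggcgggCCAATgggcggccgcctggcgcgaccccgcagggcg
CCAAT, the letters bound by the general factor NF-Y, was searched on both strands after the values were seen. It was found in 14 of 24 listed Hox promoters (58.3%) and in 33.8% of all 32851 promoters, over the 250 bases before the start. The stretches of *Hoxd12* and *Hoxa13* hold 1 match each and those of *Hoxd11* and *Hoxa11* hold 0. A match is no evidence of binding.

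Every HoxB gene that could be tested fell. The 9 falls of 9 genes stand beside 9.17% lower among all genes, and their median difference was -3.48 beside 0.06 for all genes. *Hoxb1* (chr11:96365752-96368256) was at 31.5, 48.1, 41.1 and 34.3 TPM and then at 0.136, 0 and 0 TPM, a log2 difference of -5.23 ± 0.17 (SE, adjusted p = 4.57e-08). *Hoxb6* fell from 45.5, 75.4, 67.8 and 66.1 TPM to 1.97, 1.18 and 0.337 TPM. The E10.5 libraries were ordered alike for *Hoxb4*, *Hoxb5*, *Hoxb6* and *Hoxb8*, with replicate 1 highest and replicate 3 lowest. *Hoxb9* ranged at E9.25 from 4.4 TPM in replicate 4 to 32.7 TPM in replicate 2, and was at 0.331 to 0.515 TPM at E10.5. In the HoxC cluster, 4 of 5 tested genes fell, *Hoxc4* by 3.61, *Hoxc5* by 4.06, *Hoxc6* by 1.94 and *Hoxc8* by 0.68. *Hoxc9* rose by 0.55 at 0.728 to 1.02 and 1.55 to 2.13 TPM. The annotated span of *Hoxc5* holds those of *Hoxc6*, *Hoxc8* and *Hoxc9* on the same strand, so that its value is uncertain. The call of *Hoxc9* was lost in 7 of 17 alternative fits, among them those without E9.25 replicate 4 (adjusted p = 0.0511) or without E10.5 replicate 1, 2 or 3 (adjusted p = 0.0736, 0.0831 and 0.148). That of *Hoxc8* was lost without E10.5 replicate 2 or 3 (adjusted p = 0.0947 and 0.0506).

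**Figure D2:**
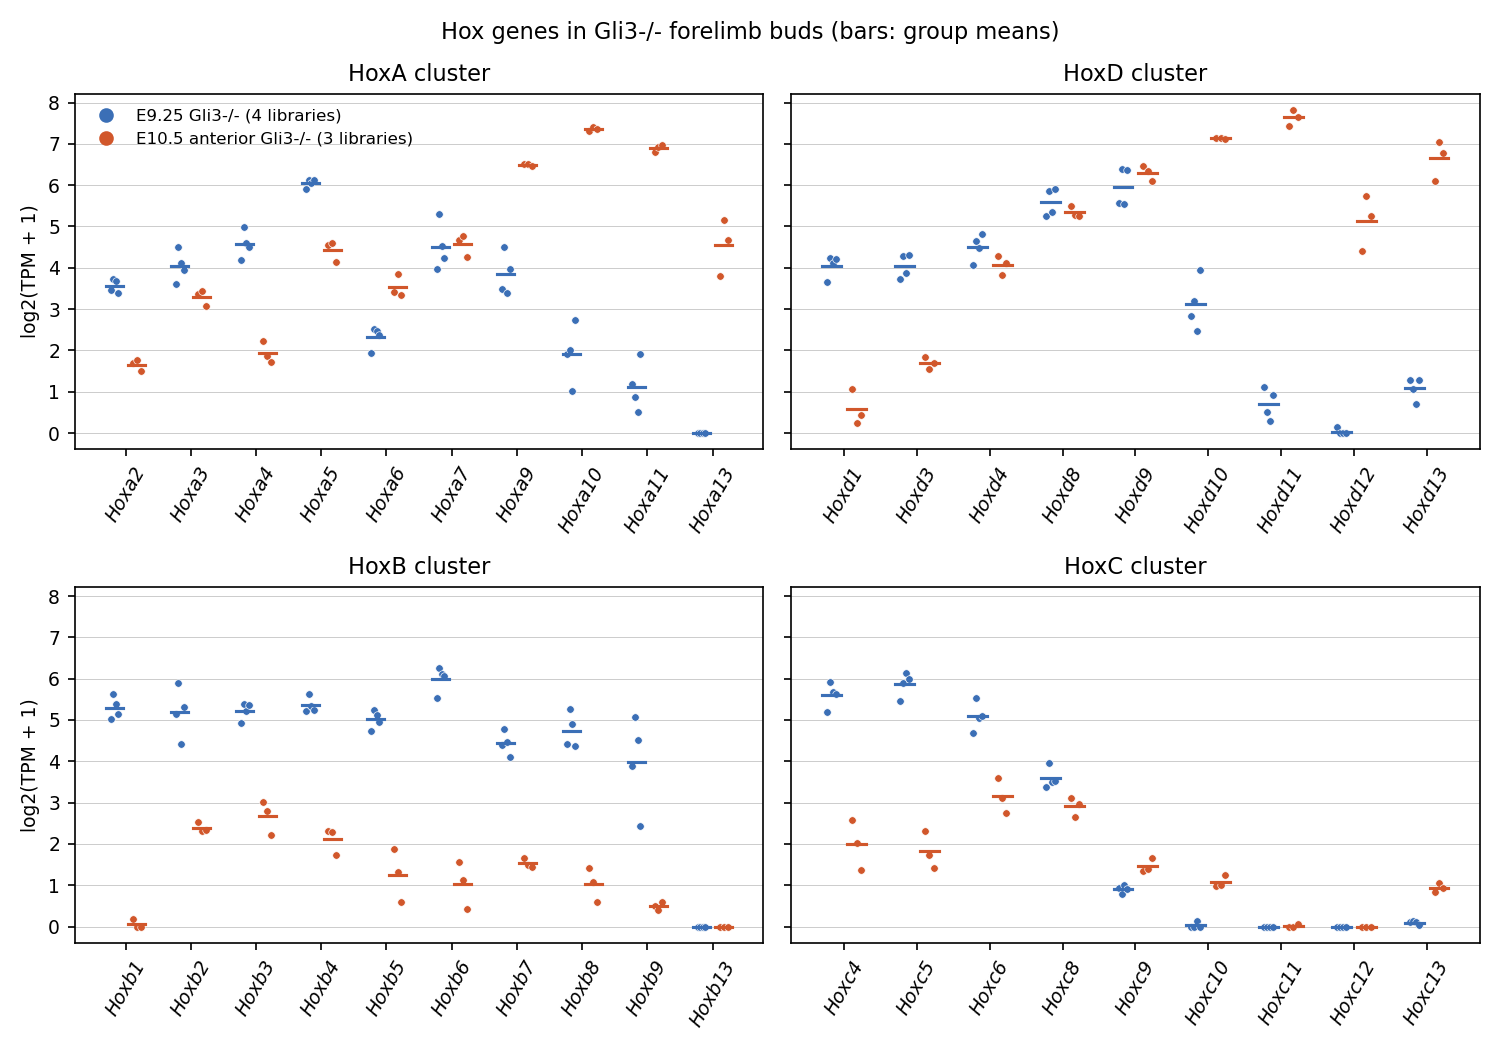
Level of the Hox genes in the 4 E9.25 and 3 E10.5 *Gli3*-/- libraries, by cluster from the 3′ to the 5′ member. The y axis is log2(TPM + 1), points are libraries and bars are group means. In HoxA and HoxD the E9.25 points lie higher at the 3′ end and the E10.5 points at the 5′ end, and in HoxB the 9 tested genes are all lower at E10.5.

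HoxB genes are also expressed in the trunk mesoderm, and markers of that tissue changed with them. Of the 12 markers of flank and lateral plate mesoderm, 9 could be tested and 8 fell (88.9%, beside 9.17% of all genes). Their summed level was 138 to 291 TPM in the E9.25 libraries and 41.1 to 54.2 TPM at E10.5, and *Bmp4*, which the ridge and limb mesenchyme also express, accounted for 39.7 to 52.3 TPM of the latter. Without it the sums were 86.4 to 236 TPM and 1.22 to 1.91 TPM. *Gata5* and *Gata6* fell by 3.94 and 4.04, and *Upk3b*, a marker of mesothelium, by 2.85. *Lhx8* and *Msln* were below 1 TPM in all 7 libraries. E9.25 replicate 4 had the lowest sum, 138 TPM, where replicates 1, 2 and 3 had 199, 291 and 291 TPM. The same library was the lowest for *Hand1*, *Gata4* and *Foxf1* and the highest for *Hoxd10*, *Hoxa10* and *Hoxa11*. It was not the highest for *Hoxd11* (replicate 1) or for *Hoxa9* and *Hoxd9* (replicate 2). The part of flank and lateral plate tissue in the falls of *Hand1*, *Aldh1a2*, *Wnt2* and the HoxB genes was not tested. Without replicate 4, all of these genes kept their direction and their call.

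The limb mesenchyme transcription factors divided. Of 27, 11 were higher (40.7%, beside 15.8% of all genes) and 10 lower (37.0%, beside 9.17%). Besides *Tbx15* and *Shox2*, *Tbx18* rose by 2.58 to between 24.1 and 38.2 TPM. *Lhx9*, a LIM factor that acts downstream of ridge FGFs, rose from 13, 24.8, 11 and 39 TPM to 100.0, 98.7 and 103 TPM, with the highest E9.25 value again in replicate 4. *Tbx4*, better known from the hindlimb, was at 0 to 0.031 TPM and then at 4.54 to 8.26 TPM. *Msx2*, a BMP target, fell by 2.27, from 33.3, 44.5, 48.6 and 35.1 TPM to 8.98, 6.88 and 6.73 TPM. The factors of the proximal limb *Meis1* and *Meis2*, named after their values were seen, fell by 1.51 and 1.74 to between 12.6 and 19 TPM and between 27.1 and 42.9 TPM. *Hand2*, a posterior factor that GLI3 opposes, was at 62.1, 90.1, 85.5 and 53.4 TPM and 72.6, 112 and 95.6 TPM and did not pass (difference 0.37 ± 0.20 SE, adjusted p = 0.216).

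Among anterior limb factors, *Alx1*, *Irx3*, *Irx5* and *Alx4* fell. *Alx1* and *Alx4* are homeodomain factors of the anterior margin and *Irx3* and *Irx5* are Iroquois factors of the anterior and proximal bud. *Alx1* fell from 37.5, 41.6, 35.8 and 36.9 TPM to 2.26, 1.24 and 1.79 TPM, a difference of -3.83 ± 0.15 (SE, adjusted p = 1.68e-07). *Irx3* was at 30.4, 43.1, 45.5 and 31.4 TPM and then at 11.5, 6.77 and 2.24 TPM, and *Irx5* at 8.07, 12.4, 13.4 and 10 TPM and 3.98, 2.73 and 0.803 TPM. *Alx4* fell by 1.35, to 6.22, 3.73 and 1.05 TPM, and its call was lost in 5 of 18 alternative fits, among them those without E9.25 replicate 3 (adjusted p = 0.0560) or without E10.5 replicate 2 or 3 (adjusted p = 0.0597 and 0.0599). In *Irx3*, *Irx5* and *Alx4* the E10.5 libraries had the same order, replicate 1 highest and replicate 3 lowest. *Pax1* and *Pax9* stayed below 1 TPM in all 7 libraries.

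Of 17 Hedgehog pathway components, 15 could be tested, 4 rose (26.7%) and 0 fell, beside 15.8% and 9.17% of all genes. *Shh* met the filter only through the 3 E10.5 libraries, so that its place in this count is no separate support. Without E10.5 replicate 1, 2 or 3, 13 or 14 could be tested and 3 rose. The ligand *Shh* was listed at 0 in all 4 E9.25 libraries and was at 1.17, 7.47 and 8.67 TPM in the E10.5 anterior libraries (adjusted p = 0.00204), with replicate 1 the lowest. The other ligands, *Ihh* and *Dhh*, were below 1 TPM throughout. *Gli1*, the transcriptional readout of the pathway, was at 0.945, 0.983, 2.08 and 0.971 TPM and then at 4.56, 9.82 and 7.73 TPM, a difference of 1.87 ± 0.25 (SE, adjusted p = 0.000486), and its E10.5 minimum was also in replicate 1. *Ptch1*, the receptor and the other common readout, was at 21.4, 38.5, 32.2 and 23.7 TPM at E9.25 and stood at 28.7, 38.3 and 34 TPM at E10.5 (difference 0.24 ± 0.20 SE, adjusted p = 0.413). Its ranges overlapped. All E9.25 WT libraries were lower than these. By fluorescent in situ hybridization the study saw *Ptch1* in the neural tube but not in E9.25 limb buds of either genotype. The co-receptor *Boc* rose by 1.14 to between 13.9 and 21 TPM. The co-receptors *Cdon* and *Gas1*, with differences of 0.37 and 0.38, and the inhibitor *Hhip*, at 0.707 to 1.61 and 0.828 to 1.46 TPM, did not pass. The transducer *Smo* was at 72.3 to 113 and 83.9 to 98.5 TPM. The other rise in the count was that of *Gli3* itself, whose value includes transcript from outside the deleted part. The remaining members *Gli2*, *Sufu*, *Kif7*, *Gpr161*, *Spop* and *Disp1* had differences from -0.21 to 0.12 and none passed.

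The predicted HH target genes of the study, 73 of which were analysed, are genes near GLI3-binding regions that fall in *Shh* mutant limbs, and were not picked from these libraries. They were chosen from E10.5 limb data, which may favour genes that are higher at that stage. This was not tested, and their share is no independent support. Of 72 tested, 34 rose (47.2%, beside 15.8% of all genes) and 14 fell (19.4%, beside 9.17%), with a median difference of 0.44 beside 0.06. Without E10.5 replicate 2, 25 rose and 9 fell of 66. The 6 members with the largest rise were *Hoxd11*, *Hoxd13*, *Hoxd12*, *Pmaip1*, *Hoxd10* and *Grem1*, so that the 5′ HoxD genes lead this list too. *Grem1*, a BMP antagonist that keeps the ridge active, rose from 2.33, 2.97, 1.87 and 3.9 TPM to 40.4, 37.3 and 47.3 TPM, a difference of 3.52 ± 0.19 (SE, adjusted p = 1.09e-06). *Lin28b*, a member of the list that blocks let-7 processing, was among those that fell. The GLI-binding motif GACCACCCA was found on either strand in 0 of 64 promoters of 48 list members over the 250 bases before the start, and in 0.225% of all promoters. No match says only that these letters are not in that window.

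Of the other genes that the study names for its RNA-seq data, *Gpx6* was at 5.98 to 9.38 TPM and 7.44 to 7.82 TPM, *Osr1* at 7.22 to 11.2 TPM and 15.4, 18.3 and 5.88 TPM. Neither passed (adjusted p = 0.748 and 0.466). At E10.5, *Osr1* was below every E9.25 library in replicate 3 and above all of them in the other E10.5 libraries. *Ski*, *Smarcc1* and *Atn1*, which encode co-repressors or chromatin factors, had differences of -0.12, 0.15 and 0.41 and did not pass (adjusted p = 0.667, 0.558 and 0.159). The study reports them as significantly lower before HH induction than at E10.5, in a sentence that names no genotype and by its own count test. The *Gli3*-/- values here are therefore no test of that report. In WT libraries *Atn1* rose by 1.25 (limma, adjusted p = 0.00425), and its interaction did not pass (adjusted p = 0.196). The T-box genes *Tbx2* and *Tbx3* fell, from 10.9, 18.2, 14.9 and 13.7 TPM to 2.65, 5.24 and 3.77 TPM for *Tbx2* and from 35.2, 56.3, 53.9 and 37.5 TPM to 15.8, 17.8 and 13.9 TPM for *Tbx3*.

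FGFs from the ridge maintain outgrowth and are read out by feedback genes in the mesenchyme. *Fgf8* rose from 18.3, 18.3, 17.6 and 36.6 TPM to 131, 157 and 171 TPM, a difference of 2.76 ± 0.23 (SE, adjusted p = 1.95e-05). *Fgf4*, which the mature ridge expresses, was listed at 0 in all E9.25 libraries and was at 5.63, 5.69 and 10.4 TPM at E10.5 (adjusted p = 5.66e-06). Of 16 FGF response genes, 8 rose and 2 fell. The feedback inhibitors *Dusp6*, *Il17rd* and *Spry4* rose by 1.54, 1.96 and 1.14, with *Dusp6* at 75.3, 113, 94.1 and 142 TPM and then at 301, 298 and 307 TPM. The receptor *Fgfr1* rose by 1.15, whereas *Fgfr2* and *Fgfr3* fell by 1.55 and 1.24.

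In the BMP list, 5 of 17 genes rose (29.4%, beside 15.8% of all genes) and 6 fell (35.3%, beside 9.17%). There were 2 or 3 rises without E9.25 replicate 3 or E10.5 replicate 1, 2 or 3. Alongside *Grem1*, the antagonist *Chrdl1* rose by 2.53 to between 9.24 and 10.9 TPM. The ligand *Bmp5* fell from 22.3, 18.9, 23.3 and 15.5 TPM to 3.03, 3.38 and 4.2 TPM. The target genes *Id2* and *Id3*, which encode inhibitors of differentiation, fell by 1.26 and 1.23, with *Id2* at 219, 210.0, 217 and 187 TPM and then at 95, 85.3 and 78 TPM. *Id1*, named after its values were seen, fell by 0.95, and the pseudoreceptor *Bambi* by 1.54. *Bmp4* itself was at 41.9 to 66.8 and 39.7 to 52.3 TPM and did not pass (adjusted p = 0.398).

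Wnt genes moved in both directions, 7 of 26 higher (26.9%, beside 15.8% of all genes) and 11 lower (42.3%, beside 9.17%). *Wnt5a*, a ligand of the distal mesenchyme, rose from 14.8, 28.2, 20.6 and 21.2 TPM to 70.7, 99.7 and 99.3 TPM. *Rspo3*, a Wnt enhancer, rose by 2.36, *Wnt7b* by 1.46 and the secreted inhibitor *Frzb* by 2.61 to between 39.8 and 51.5 TPM. The secreted inhibitor *Sfrp1* fell from 70.1, 108, 98.7 and 65.9 TPM to 13.7, 17.2 and 9.72 TPM. The feedback genes *Nkd1* and *Axin2* fell by 1.65 and 0.61. *Axin2* was named after its values were seen, and it lost its call without E9.25 replicate 3 (adjusted p = 0.0581) and without E10.5 replicate 1, 2 or 3 (adjusted p = 0.0734, 0.0690 and 0.0792).

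Among retinoic acid genes, genes of synthesis fell and a degrading enzyme rose. Of 13 tested, 3 rose and 3 fell, 23.1% each beside 15.8% and 9.17% of all genes. *Rdh10*, which makes the precursor for *Aldh1a2*, fell from 30.6, 37.9, 38.3 and 25.3 TPM to 7.88, 6.55 and 6.49 TPM, and the receptor and target gene *Rarb* fell by 2.63 to between 1.64 and 4.82 TPM. *Cyp26b1*, which degrades retinoic acid in the distal limb, rose from 11.3, 19.4, 16.6 and 19 TPM to 108, 184 and 147 TPM, a difference of 3.06 ± 0.21 (SE, adjusted p = 5.85e-06). The receptor *Rarg* rose by 1.49 and the binding protein *Crabp2* by 1.03.

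Genes of the skeletal and connective tissue programmes were detected at E10.5 in part. *Sox9*, the master regulator of cartilage, rose from 11.2, 16.5, 15.1 and 11.8 TPM to 57.7, 89.3 and 53.4 TPM, a difference of 2.19 ± 0.20 (SE, adjusted p = 3.12e-05). Of 10 cartilage genes tested, 4 rose and 2 fell. *Sox5*, *Col9a1* and *Col11a1* rose by 0.90, 1.37 and 1.14, and *Hapln1* and *Sox6* fell by 1.82 and 1.48. Genes of later cartilage and joints, *Acan*, *Matn1*, *Gdf5*, *Nkx3-2* and *Runx2*, were below 1 TPM in all 7 libraries. *Scx*, the factor of tendon progenitors, rose from 2.19, 2.37, 1.81 and 2.07 TPM to 46.1, 71.8 and 35.8 TPM, and *Mkx*, a later tendon factor, by 1.34, while the tendon gene *Tnmd* stayed below 1 TPM. In the tendon and connective tissue list, 10 of 22 rose (45.5%, beside 15.8% of all genes) and 4 fell (18.2%, beside 9.17%). Without E9.25 replicate 3 or E10.5 replicate 1 or 3, 1 of these fell. *Tcf4* and *Tcf7l2*, the latter a marker of muscle connective tissue, rose by 1.60 and 1.57. *Postn*, a matrix protein, fell from 66.5, 20.9, 16.9 and 5.65 TPM to 1.06, 1.01 and 1.1 TPM, with E9.25 replicate 1 the highest and replicate 4 the lowest. Among collagens, 14 of 30 rose (46.7%, beside 15.8% of all genes) and 5 fell (16.7%, beside 9.17%). Without E10.5 replicate 1, 2 or 3, 8 or 9 of 25 rose, and 3 fell without E9.25 replicate 3 or E10.5 replicate 1 or 3. The list was led by *Col25a1*, up by 3.54 to between 15.2 and 18.6 TPM, and *Col14a1*, down from between 6.65 and 10.4 TPM to between 0.133 and 0.364 TPM.

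Cell types that enter the bud were compared by marker lists. Of 13 muscle progenitor markers, 9 could be tested, 4 rose (44.4%, beside 15.8% of all genes) and 1 fell (11.1%, beside 9.17%). Without E10.5 replicate 1, 2 or 3, 6 could be tested and 1 rose, since a gene was tested only with at least 1 TPM in 3 libraries. The list had a summed level of 30 to 37.1 TPM at E9.25 and 52.8 to 70.9 TPM at E10.5. *Lbx1*, which marks migrating limb muscle progenitors, was at 0.305, 0.329, 0.203 and 0.692 TPM and then at 14.2, 15.1 and 11.2 TPM. *Pax3*, the regulator of these cells, rose by 2.94, the chemokine receptor *Cxcr4* by 2.10 and the myogenic factor *Myf5* by 2.18, from between 0 and 0.066 TPM to between 2.43 and 4.86 TPM. *Myog* and *Pax7* were below 1 TPM in all libraries. *Des*, an intermediate filament of muscle, was the member that fell, from between 6.19 and 12.6 TPM to between 1.08 and 1.96 TPM.

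Macrophage and leukocyte markers rose from near 0. Of 14, 10 could be tested, 8 rose and 1 fell. A gene was tested only with at least 1 TPM in 3 libraries. Members near 0 at E9.25 therefore entered only through the 3 E10.5 libraries, and the count of rises is no separate support. Without E10.5 replicate 1, 2 or 3, when 3 could still be tested, 1 rose. The summed level was 5.2 to 8.07 TPM at E9.25 and 24.9 to 27.8 TPM at E10.5. The complement gene *C1qb*, which tissue macrophages express, was at 0, 0, 0.286 and 0 TPM and then at 4.82, 4.23 and 5.01 TPM. *C1qa* and *Aif1* were listed at 0 in all 4 E9.25 libraries and were at 1.49 to 2.39 and 1.04 to 1.81 TPM at E10.5. *Csf1r*, the receptor that macrophages depend on, rose from between 0.143 and 0.473 TPM to between 2.14 and 2.53 TPM and the adaptor *Tyrobp* from between 0 and 0.303 TPM to between 3 and 4.09 TPM. *Ptprc*, *Adgre1* and *Fcgr1*, further leukocyte markers, were below 1 TPM in all 7 libraries, and *Lyve1*, which lymphatic vessels also express and which was named after its values were seen, was the member that fell, by 1.19. Its call was lost without E10.5 replicate 1, 2 or 3 (adjusted p = 0.0547, 0.0753 and 0.0574).

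Endothelial markers were lower in part, 7 of 19 lower (11 without E9.25 replicate 1) and 2 higher, with sums of 278 to 444 TPM and 195 to 256 TPM. The angiopoietin receptor *Tek* fell by 1.28, the lymphatic receptor *Flt4* by 1.08 and the tight junction gene *Cldn5* by 0.91, and *Robo4* rose by 0.94. Erythroid markers gave no call among 16 in limma (0 at an unadjusted p under 0.05 as well), whereas 2 rose without E9.25 replicate 3 and 5 rose and 1 fell with a replicate block, and their sum ranged from 8603 to 29076 TPM at E9.25 and from 15085 to 43027 TPM at E10.5. The embryonic globin gene *Hbb-y* was at 5315, 2389, 8114 and 3638 TPM and 5480.0, 6287 and 15960.1 TPM (adjusted p = 0.163). E9.25 replicate 3 and E10.5 replicate 3 had the highest erythroid sums of their groups.

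Ectoderm and ridge markers summed to 371 to 536 TPM and 438 to 501 TPM. Of 22, 8 were higher (36.4%, beside 15.8% of all genes) and 7 lower (31.8%, beside 9.17%). Without E10.5 replicate 1, 2 or 3 4 or 5 of 20 were higher, and 4 were lower without E9.25 replicate 3 or 4 or E10.5 replicate 2. The keratins of the basal epidermis *Krt5* and *Krt14* rose by 2.17 and 1.62 to between 55.9 and 67.8 TPM and between 8.6 and 10.9 TPM. The keratins of simple epithelia *Krt8* and *Krt18* fell by 1.82 and 2.02, from 132, 98.2, 132 and 53.1 TPM to 27, 21 and 22.5 TPM for *Krt18*, with the lowest E9.25 values in replicate 4. Mesothelium expresses these keratins too. Neural and neural crest markers were scarce, with 10 of 15 below 1 TPM in all libraries, among them the crest factors *Sox10* and *Foxd3*. *Tubb3* rose from between 2.32 and 4.49 TPM to between 9.17 and 14.9 TPM and *Stmn2* from between 0.173 and 0.418 TPM to between 1.16 and 1.66 TPM. Of 13 somite and neural tube markers, 9 were below 1 TPM throughout. *Tcf15* rose by 2.36 and *Meox1* fell by 1.05.

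**Figure D3:**
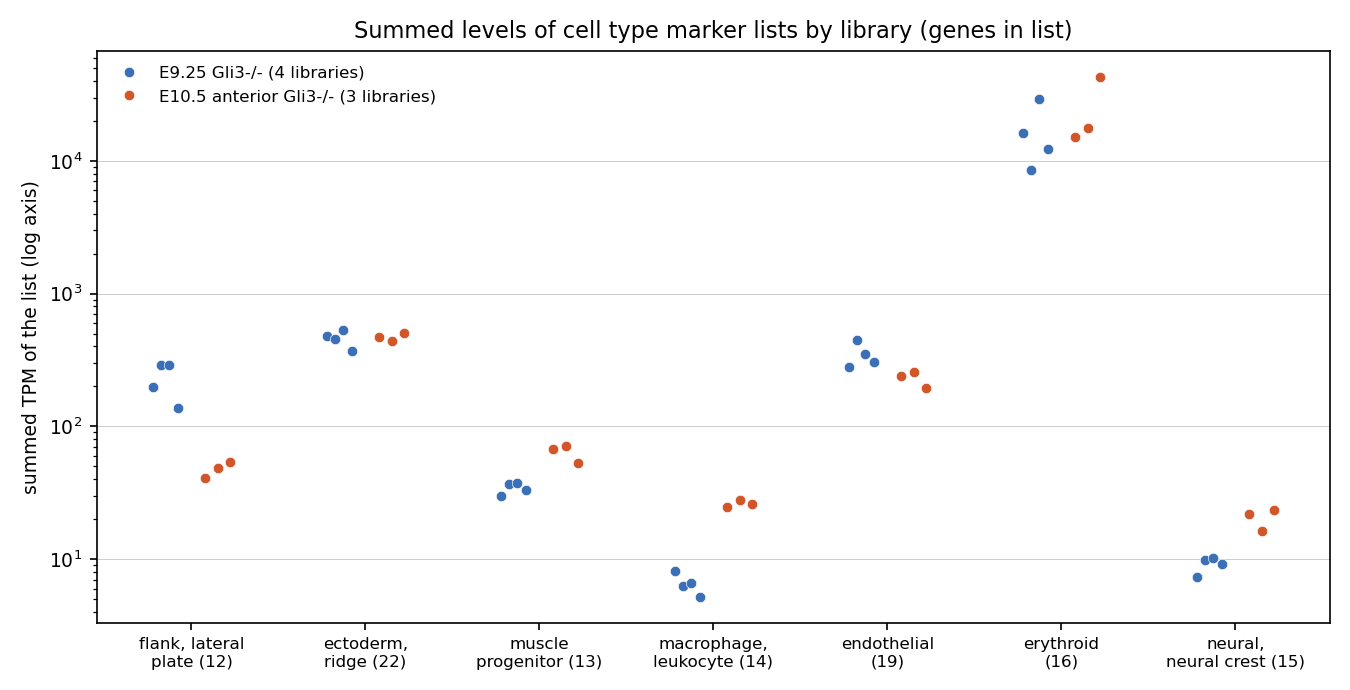
Summed TPM of 7 cell type marker lists (log axis) in each *Gli3*-/- library, with the number of genes in each list. The flank and lateral plate sum is 138 to 291 TPM at E9.25 and 41.1 to 54.2 TPM at E10.5, the macrophage sum is 5.2 to 8.07 TPM and 24.9 to 27.8 TPM, and the ectoderm and erythroid sums of the 2 stages overlap.

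Genes of developmental timing fell or did not pass. *Lin28a* and *Lin28b* encode RNA-binding proteins that block maturation of let-7 and are lost as tissues mature. *Lin28a* went from 182, 289.9, 257 and 225 TPM to 36.8, 20.6 and 28.5 TPM, a difference of -3.03 ± 0.20 (SE, adjusted p = 4.71e-06), and *Lin28b* from 84.6, 117, 91.2 and 111 TPM to 53.1, 40.1 and 54.1 TPM. Of 16 timing genes tested, 8 fell and 0 rose. *Nr6a1*, a nuclear receptor of trunk development, fell by 3.38 to between 2.58 and 5.81 TPM, *Prtg*, which encodes protogenin, by 3.16, *Trim71*, a let-7 target, by 1.11 and *Myc* by 2.06. Of 20 imprinted growth genes, 11 fell (55.0%, beside 9.17% of all genes) and 4 rose (20.0%, beside 15.8%). Without E9.25 replicate 4 or E10.5 replicate 1 or 2, 2 rose. *Dlk1*, a Notch-related growth regulator, fell from 332, 516, 487 and 330.3 TPM to 42.3, 53.7 and 24.4 TPM, and *Meg3* and *Rian*, noncoding RNAs of the same imprinted domain, fell by 1.92 and 2.14. *Phlda2* and *Plagl1* fell by 3.17 and 1.77. *Nnat* rose from 197, 228, 209 and 216 TPM to 1955, 1954 and 1936 TPM. The standard error of its difference was 0.10.

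Most glycolysis genes fell. Of 21, 15 were lower (71.4%, beside 9.17% of all genes) and 1 was higher, with a median difference of -0.75 and 13 to 16 lower under 4 other scalings. The lactate dehydrogenase genes moved apart. *Ldha*, the muscle-type subunit, fell from 2837, 2844, 3023 and 2969 TPM to 1679, 1267 and 1351 TPM, while *Ldhb*, the heart-type subunit, rose from 35.4, 40.5, 36.2 and 42.5 TPM to 242, 286 and 235 TPM, a difference of 2.68 ± 0.11 (SE, adjusted p = 2.78e-07). The lactate exporter *Slc16a3* fell by 1.54, the pyruvate dehydrogenase kinase *Pdk1* by 1.08, and *Aldoa* and *Pgam1* by 0.88 and 0.87. Of 14 hypoxia response genes, which share targets with glycolysis, 8 fell (57.1%, beside 9.17% of all genes) and 2 rose (14.3%, beside 15.8%). The falls came to 4 without E10.5 replicate 2 and to 3 without E10.5 replicate 3. *Higd1a* fell from between 72.9 and 97.8 TPM to between 38.1 and 38.5 TPM, *Bnip3* by 0.82 and *Vegfa* by 0.57, and *Ddit4* rose by 0.97. The call of *Vegfa* was lost without E10.5 replicate 2 or 3 (adjusted p = 0.0764 and 0.0548). Of 81 nuclear respiratory chain genes, 1 rose and 1 fell (1.2% each, beside 15.8% and 9.17% of all genes). Of 13 mitochondrially encoded messenger genes, 6 rose (46.2%, beside 15.8%) and 0 fell. Among these rises were *mt-Atp6* by 0.89 and *mt-Cytb* by 0.85. Without E9.25 replicate 1, 10 of the latter rose, and 8 respiratory chain genes rose and 4 fell.

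Genes of the cell cycle were called about as often as other genes. Of 29 replication and mitosis genes, 6 rose (20.7%, beside 15.8% of all genes) and 1 fell (3.4%, beside 9.17%), and their median difference was 0.03. *Mki67* and *Cenpe*, expressed in cycling cells, rose by 0.97 and 1.31, *Top2a* by 0.50 and *Ccnb2* by 0.56, and *Gins2*, a replication factor, fell by 0.59. Of 13 D cyclins, G1 kinases and inhibitors, the inhibitors *Cdkn1c* and *Cdkn1a* and the kinase *Cdk2* rose. *Cdkn1c* went from 84.3, 122, 117 and 85.8 TPM to 225, 375 and 259 TPM and *Cdkn1a*, a p53 target, from 5.73, 8.52, 8.9 and 8.5 TPM to 19.6, 17.1 and 18.8 TPM. *Ccnd2* did not pass (adjusted p = 0.268). Of 58 replication histone genes, 5 rose (8.6%, beside 15.8% of all genes), and of 85 cytosolic ribosomal protein genes 8 fell (9.4%, beside 9.17%). The counts of both lists changed widely between fits, from 1 to 30 and from 0 to 43. Of 9 genes that respond to handling stress, *Egr1* and *Atf3* fell, from between 5.09 and 7.92 TPM to between 0.634 and 0.819 TPM for *Egr1*, and the small heat shock gene *Hspb1* rose from between 1.3 and 3.66 TPM to between 22.5 and 26.5 TPM.

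**Figure D4:**
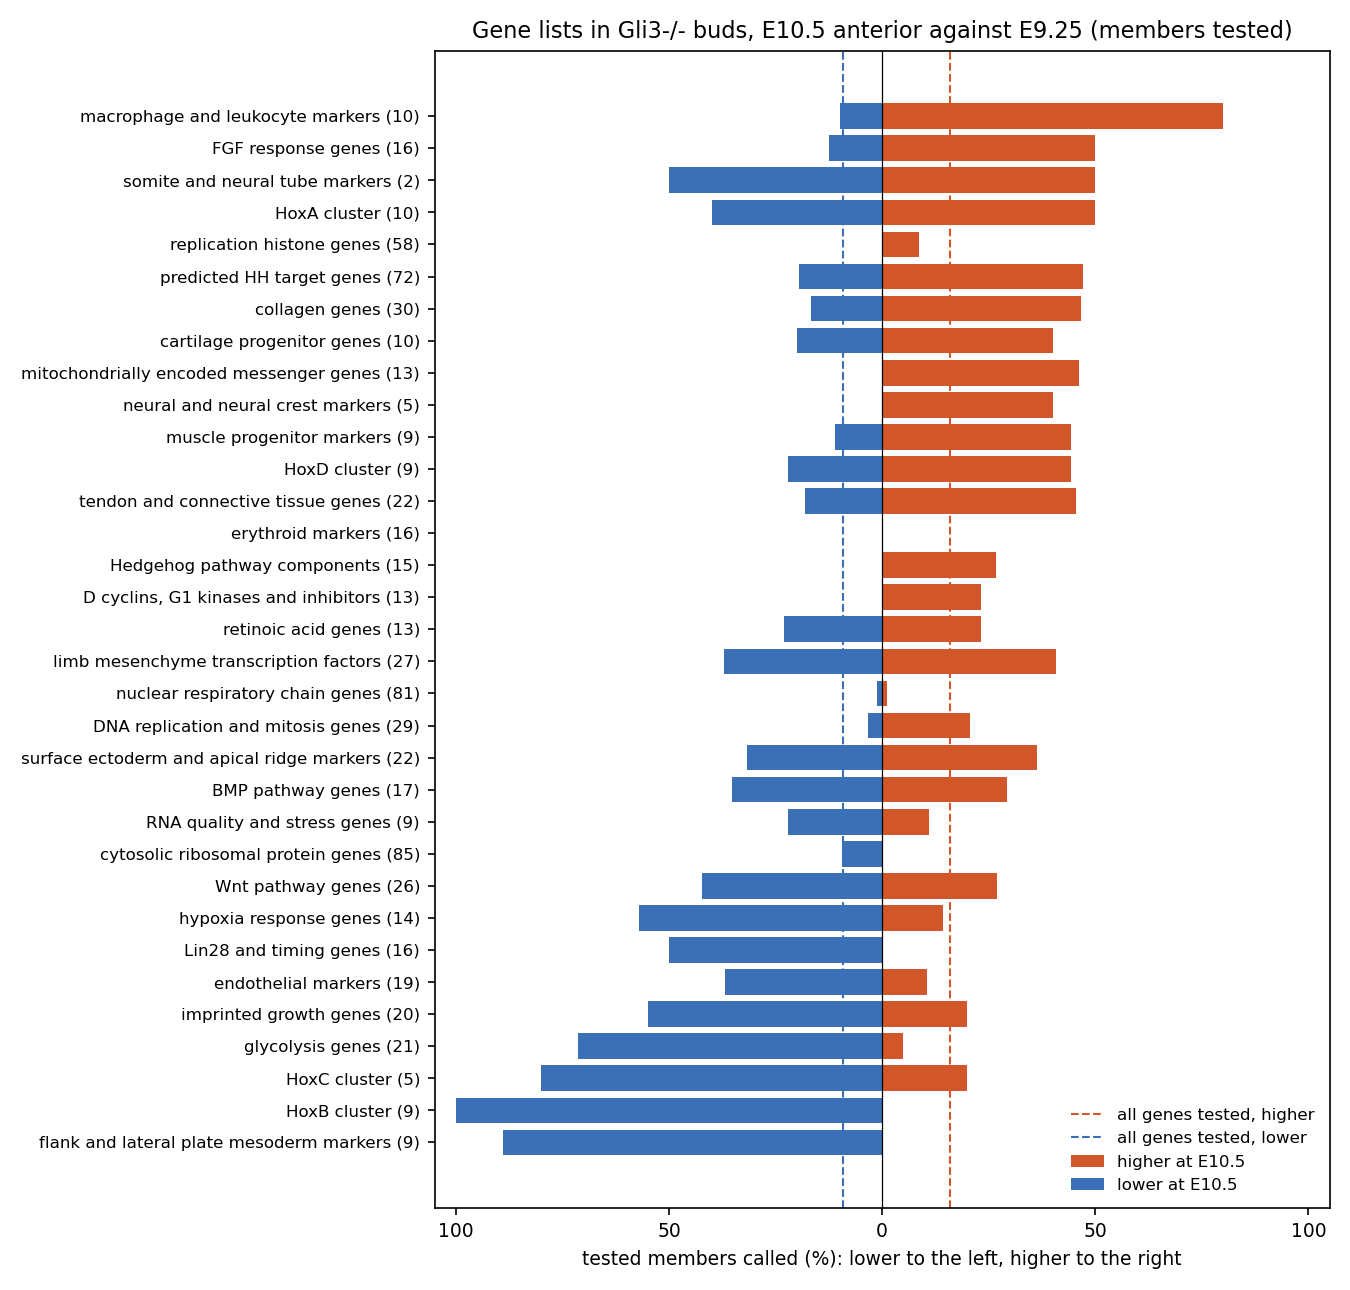
Share of the tested members of each of 33 gene lists that was higher (right) or lower (left) at E10.5 in *Gli3*-/- buds at an adjusted p under 0.05, ordered by the median difference of the list. Dashed lines give the shares of all genes tested, 15.8% higher and 9.17% lower, and the number of members tested stands after each name.

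The stage change was set against that of WT buds to see where it differed without *Gli3*. In WT, 5885 genes rose and 1635 fell of 15444 (48.7%). The median gene changed by 0.34 in WT and by 0.06 in *Gli3*-/- buds, and the median interaction (change in *Gli3*-/- minus change in WT) was -0.24. Of 16368 genes tested for the interaction, 78 (0.477%) changed more upward in *Gli3*-/- buds and 270 (1.65%) more downward, 2.13% in all, and 232 of these had also passed in *Gli3*-/- buds. These 348 calls became 150 without E10.5 *Gli3*-/- replicate 3, 1433 without E9.25 WT replicate 1, 201 to 230 without WT replicate 2 or 3 of E9.25 or 1, 3 or 4 of E10.5 or without *Gli3*-/- replicate 3 of E9.25 or 1 or 2 of E10.5, and 138 with a replicate block. With quantile normalization the interaction had a median of 0.01 and the upward share of its calls was 47.5% instead of 22.4%, and with size factors 37.8%, so that directions are given here for single genes, and no call of a named gene was reversed.

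The 5′ HoxD and HoxA genes, *Shh* and ridge FGFs changed more upward without *Gli3*. This did not hold for every posterior gene, since *Tbx2*, which the study describes as posteriorly expressed, changed more downward (-2.12). *Hoxd13* was at 2.37, 2.72 and 2.54 TPM in the E9.25 WT libraries and at 3.57, 13.5, 5.65 and 2.53 TPM in the E10.5 anterior WT libraries, and its change exceeded that in WT by 4.74 ± 0.52 (SE, limma, adjusted p = 0.000358). *Hoxd12* followed with 4.04, *Hoxd11* with 3.10 and *Hoxd10* with 2.83. For *Hoxd11*, which rose in WT too, the WT levels were 1.81, 2.81 and 2.2 TPM and 33.8, 64.2, 47.5 and 41 TPM. *Hoxa13* differed by 2.63 (not called without E10.5 *Gli3*-/- replicate 3, adjusted p = 0.0528), *Hoxa11* by 2.51 and the proximal gene *Shox2* by 2.32. *Hoxd10* was at 19.9, 39.7 and 48.2 TPM and 82.3, 84.5, 74.3 and 71.8 TPM in WT and *Hoxa11* at 3.55, 6.95 and 8.83 TPM and 65.6, 66.5, 73.9 and 62.6 TPM, so that the *Gli3*-/- libraries were below WT at E9.25 and above it at E10.5. For *Hoxd10* the mean log2(TPM + 1) was 3.11 in *Gli3*-/- and 5.12 in WT at E9.25, and 7.13 and 6.30 at E10.5, and for *Hoxa11* it was 1.12 and 2.82, and then 6.89 and 6.09. The difference at E9.25 was the larger one in both genes. *Fgf8* was at 40.3, 57.8 and 71.1 TPM in E9.25 WT and 59, 50.4, 69 and 57.8 TPM in E10.5 WT, without a rise that passed (log2 difference 0.09), and its interaction was 2.67 (adjusted p = 0.000732). All *Gli3*-/- libraries were below these WT levels at E9.25 and above them at E10.5. *Fgf4* differed by 2.08 and *Dusp6* by 1.36. *Shh*, at 0.06, 0 and 0 TPM and 0, 0, 0 and 0 TPM in WT, differed by 2.52 (adjusted p = 0.0179). *Gm28309*, an annotated model at chr2:74683446-74694194 that overlaps *Hoxd10* and *Hoxd11* on the same strand, differed by 2.51 and shares their reads.

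Anterior factors and several BMP targets changed more downward than in WT. *Nr1h5*, a nuclear receptor, was listed at 0 in all 3 E10.5 *Gli3*-/- libraries after 1.54, 2.31, 2.37 and 0.234 TPM at E9.25, whereas WT libraries were at 0.052, 0 and 0.121 TPM and then at 8.21, 10.1, 12.7 and 32.7 TPM (interaction adjusted p = 0.000358). *Irx3* was in WT at 38.1, 27.7 and 27.2 TPM and then at 65.7, 48.2, 67.4 and 53.5 TPM, an interaction of -3.39 (adjusted p = 0.00151). *Irx5* differed by -2.75 and *Alx4*, which reached 52.9, 31.9, 51 and 51 TPM in WT, by -3.09. *Pax1*, below 1 TPM in *Gli3*-/- buds, was at 16.2, 8.27, 30.7 and 34.6 TPM in E10.5 WT and differed by -4.29. *Msx2* was at 37.1, 33.8 and 34.1 TPM and 42, 31.8, 43.3 and 41.5 TPM in WT and differed by -2.44 ± 0.21 (SE, adjusted p = 0.000104), and *Id2* and *Id3* differed by -1.54 and -1.40. The Wnt inhibitor *Sfrp1* differed by -2.59, and the proximal factors *Meis1* and *Meis2* by -1.98 and -1.78.

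Most HoxB genes and 3 HoxC genes changed more downward without *Gli3*. Among them, *Hoxb3* and *Hoxc6* hardly changed in WT (differences -0.03 and -0.05). Of 9 HoxB genes, 8 had an interaction below 0 that passed, such as *Hoxb6* at -2.84 and *Hoxb5* at -2.62, and 3 of 6 HoxC genes did, *Hoxc4*, *Hoxc5* and *Hoxc6*, at -2.85, -2.94 and -1.89. *Foxf1* and *Gata4*, of the flank list, differed by -3.59 and -2.99. Without *Bmp4*, the summed flank markers were 86.4 to 236 TPM in the *Gli3*-/- and 27.9 to 72.7 TPM in the WT libraries at E9.25, and 1.22 to 1.91 TPM and 2.09 to 4.2 TPM at E10.5, so that the genotypes did not overlap in this sum at either stage. Its part in these interactions was not tested. *Hoxc5* was at 43.3, 58.9, 69.3 and 62.6 TPM and then at 3.95, 2.34 and 1.66 TPM in *Gli3*-/- buds, and at 34.4, 42.8 and 23.9 TPM and 18.8, 9.87, 15.5 and 15.7 TPM in WT buds. Its annotated span holds those of *Hoxc6*, *Hoxc8* and *Hoxc9* on the same strand, so that its value is uncertain. The tRNA genes *mt-Tw* and *mt-Ta* and the gene model *Gm14226* (chr2:155018266-155027104) differed downward too, by -3.07, -2.86 and -3.30.

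For many other genes the interaction did not pass. The differences between genotypes were 0.14 for *Lin28a*, 0.08 for *Ldhb*, 0.03 for *Mab21l1*, 0.33 for *Scx*, 0.01 for *Cxcr4* and 0.37 for *C1qb*, with standard errors of 0.38, 0.25, 0.22, 0.29, 0.24 and 0.30. None of the 6 passed, which does not show that they were equal. *Gli1* rose in both (interaction -0.36 ± 0.41 SE, adjusted p = 0.601), and *Ptch1*, which was at 8.08, 2.48 and 5.82 TPM and 9.54, 11.7, 11.3 and 9.7 TPM in WT, had an interaction of -0.70 ± 0.38 (SE, adjusted p = 0.281).

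**Figure D5:**
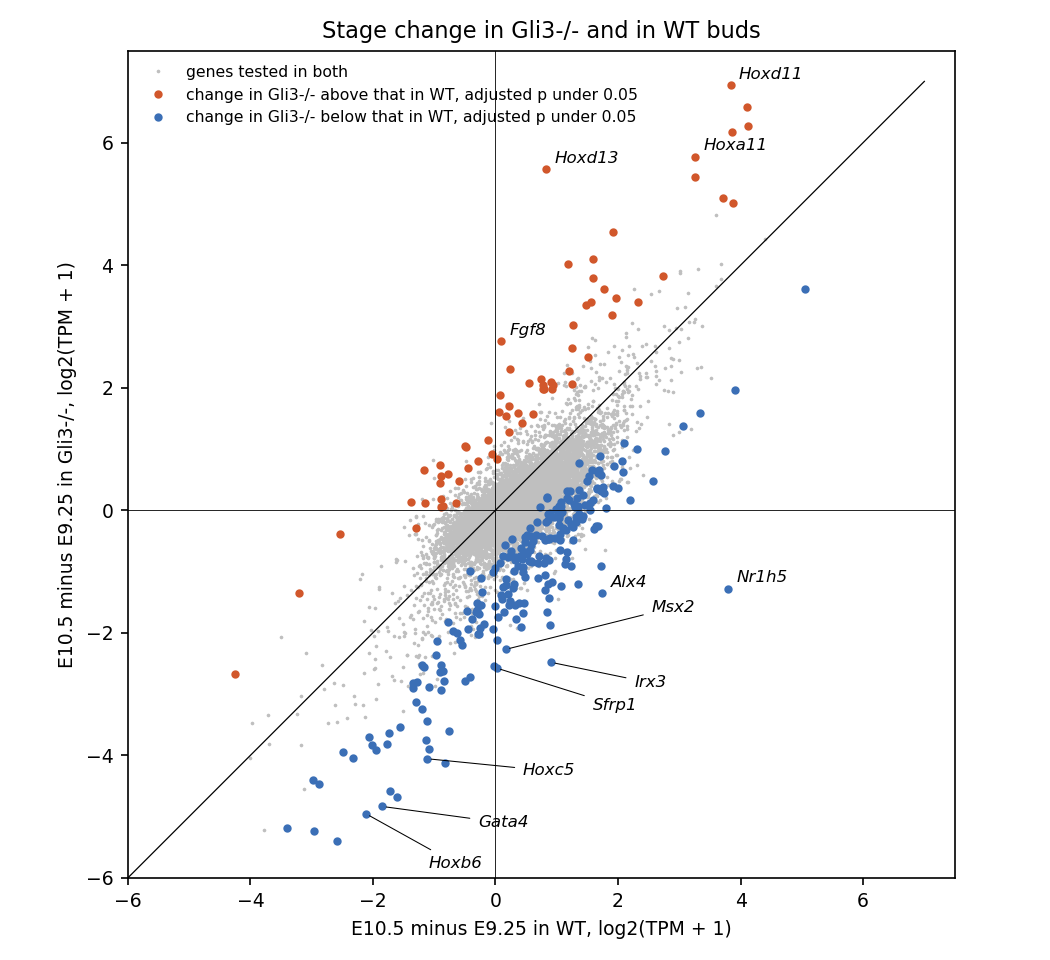
Stage change in *Gli3*-/- buds (y axis) against that in WT buds (x axis), both in log2(TPM + 1), for 14956 genes tested in both. Orange points (66) changed more upward and blue points (226) more downward in *Gli3*-/- buds at an adjusted p under 0.05, and the line marks equal change. *Hoxd13* and *Fgf8* lie far above the line and *Nr1h5*, *Irx3* and *Alx4* below it.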

How the data were processed

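RNA was measured in 14 RNA-seq libraries, 7 of which hold *Gli3*-/- forelimb buds (4 of E9.25 whole buds and 3 of E10.5 anterior buds). Per the study's methods, limb bud pairs were stored in TRIzol and pooled, libraries were made with the NEBNext Ultra II RNA kit and sequenced on a NovaSeq S1 as single reads of 100 bases, and reads were aligned with HISAT2. The build is mm10 by the submitters' processing notes. The quantifier, the annotation and the use of strand are not given in the sources used here. The deposited tables give TPM, FPKM and mean coverage per gene, made by the authors, and no counts. The study's own test needs counts. On these TPM values limma 3.58.1 (R 4.3.3) was run with a trend on log2(TPM + 1), over genes with at least 1 TPM in at least 3 of the libraries of a comparison, two-sided and with Benjamini-Hochberg adjustment over all genes tested.

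Depth was estimated from the ratio of deposited coverage to FPKM. Values of a gene ID on several lines were summed. Comparisons were made over samples grouped by their labels: E10.5 against E9.25 in *Gli3*-/- buds, the same in WT buds, and the interaction over all 14 libraries. Named genes were the 12 with the largest change in each direction among those that passed without overlap of the groups (gene models left out), up to 6 with the largest change in each of 34 lists, every member of the HH component, HoxA, HoxD and anterior lists, marker genes near 0, the 8 with the largest interaction in each direction among those that passed in both tests, and genes that the study names. Any other gene is said to be chosen afterwards; these are *Meis1*, *Meis2*, *Tbx5*, *Prrx1*, *Bmp4*, *Id1*, *Axin2* and *Lyve1*. The comparison and the lists were chosen with earlier results of these data known, and lists are described by counts and medians, without a set test. Some genes are not reported here, and they were left out of the lists and of the ranking of named genes but not of the fits. No count is given over the list of anterior factors for this reason. Promoters came from RefSeq (GRCm38.p6). The alternatives were other pseudocounts, filters, scalings, weights, thresholds, a replicate block and leaving out each library. Scripts were tested on simulated data (Python 3.11.15, pandas 2.3.3, numpy 2.4.6, matplotlib 3.10.9).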

Additional observations from a re-analysis of the deposited data

Results flagged for a closer look

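The stage change differed between *Gli3*-/- and WT buds in 66 of the 190 genes named in the text (limma interaction, adjusted p under 0.05, beside 2.13% of all genes). These genes include those with the largest interactions, so that nothing is read from this share. The values in parentheses are the change in *Gli3*-/- buds minus the change in WT buds, in log2(TPM + 1). Upward differences were found in 5′ Hox genes and a gene model that shares their reads, with *Hoxd13* (4.74), *Hoxd12* (4.04), *Hoxd11* (3.10), *Hoxd10* (2.83), *Hoxa13* (2.63), *Hoxa11* (2.51), *Hoxa11os* (2.48), *Hoxa10* (2.19), *Hoxa9* (1.40) and *Gm28309* (2.51). They were also found in the ligand *Shh* and the ridge FGFs with their feedback gene, with *Shh* (2.52), *Fgf8* (2.67), *Fgf4* (2.08) and *Dusp6* (1.36). *Hoxa9* was at 9.55 to 21.8 TPM in *Gli3*-/- and 32.8 to 40.2 TPM in WT libraries at E9.25. At E10.5 its levels were 87.0 to 90.5 and 85.3 to 92.0 TPM, so that its difference lay at E9.25. *Hoxa10* was below WT at E9.25 and above it at E10.5. Among mesenchymal and connective tissue factors, *Shox2* (2.32), *Tbx15* (2.15) and *Osr2* (1.39) had upward differences, and the other genes that changed more upward were *Tubb3* (1.54), *Nnat* (1.30), *Cdkn1a* (1.27) and *Lbx1* (1.07).

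Downward differences were found in anterior factors and the nuclear receptor Nr1h5, with *Pax1* (-4.29), *Alx4* (-3.09), *Irx3* (-3.39), *Irx5* (-2.75), *Alx1* (-1.82) and *Nr1h5* (-5.08). In flank and lateral plate genes and a simple keratin that mesothelium shares they came to *Foxf1* (-3.59), *Gata4* (-2.99), *Hand1* (-2.81), *Gata6* (-1.72), *Gata5* (-1.44) and *Krt18* (-1.74). In HoxB and HoxC genes they came to *Hoxb6* (-2.84), *Hoxb5* (-2.62), *Hoxb1* (-2.27), *Hoxb4* (-2.06), *Hoxb8* (-1.64), *Hoxc5* (-2.94), *Hoxc4* (-2.85) and *Hoxc6* (-1.89), and in 3′ HoxA and HoxD genes to *Hoxa2* (-1.66), *Hoxa4* (-1.74), *Hoxa3* (-1.46) and *Hoxd3* (-1.39). Among BMP targets and mesenchymal factors the differences were those of *Msx2* (-2.44), *Id2* (-1.54), *Id3* (-1.40), *Id1* (-0.94), *Meis1* (-1.98), *Meis2* (-1.78) and *Tbx2* (-2.12), and among Wnt and retinoic acid genes those of *Sfrp1* (-2.59), *Wnt2* (-1.59), *Nkd1* (-1.18) and *Rarb* (-1.77). The receptors of FGFs and an HH co-receptor *Fgfr3* (-2.31), *Fgfr2* (-1.87) and *Cdon* (-1.63), the cartilage genes *Sox6* (-1.71) and *Col9a1* (-1.69), the imprinted genes *Plagl1* (-2.11) and *Rian* (-1.19), and the mitochondrial tRNA genes and a gene model *mt-Tw* (-3.07), *mt-Ta* (-2.86) and *Gm14226* (-3.30) made up the rest. The calls of *Gata6*, *Lbx1*, *Col9a1*, *Hand1* and *Gata5* were lost in 13 to 16 of 23 alternative fits, in which none of the 66 changed direction. Leaving out 1 library also ended the calls of *Fgfr2*, *Krt18*, *Nkd1*, *Sox6*, *Hoxb8*, *Hoxa10*, *Tubb3* and *Hoxd3* in 4 or more of 14 cases. Without E10.5 *Gli3*-/- replicate 3 the calls of *Cdon* (adjusted p = 0.0567), *Hoxa13* (0.0528), *Hoxa3* (0.0570), *Rian* (0.0670) and *Wnt2* (0.0559) were lost, without E10.5 *Gli3*-/- replicate 2 that of *Osr2* (0.0515) and without E9.25 WT replicate 3 that of *Hoxa9* (0.0520). The median gene differed by -0.24, so that a gene that moves with the median counts as changing downward.

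Among the 4 E9.25 *Gli3*-/- libraries, 1 stood apart from the other 3 in 16 of 184 genes named in the text for which this could be checked, by the gap to its neighbour divided by the range of the group. Chance flags about 1 in 20 such groups. Replicate 4 was the highest of the group for *Fgf8* (0.946) and for *Gm28309*, *Myf5*, *Pax1*, *Tbx4* and *Tyrobp*, where the share was 1.0 because the other 3 libraries were equal. It was the lowest for *Upk3b* (0.883) and *Tek* (0.842). Replicate 1 was the lowest for *Cdk2* (0.838) and *Cdkn1a* (0.893) and the highest for *Lyve1* (0.916), *Ihh* (0.888) and, at 1.0, *Hoxd12*. Replicate 3 was the highest for *Gli1* (0.958) and, at 1.0, *C1qb*, and the lowest for *Hoxa11os* (0.867). In *Gm28309*, *Hoxd12*, *C1qb*, *Myf5*, *Pax1*, *Tbx4* and *Tyrobp* the separate library had under 1 TPM and the other 3 were listed at 0.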

How the results depend on the processing

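No call of a named gene changed direction under any alternative, in 4112 values of the stage change for 235 genes (114 lost the call, 82 gained it) and 5383 values of the interaction for 236 genes (172 lost it, 74 gained it). Differences that were not called changed sign in 21 values of 8 genes and in 279 values of 63 genes. Counts of calls moved more. Lower genes came to 2186 with quantile normalization, 2298 with median-of-ratios size factors, 2542 after centring on the median gene and 2387 with sample quality weights, which also gave 4133 higher genes. At an absolute log2 difference of at least 1 the counts were 715 higher and 457 lower, and at an adjusted p under 0.01 they were 1335 and 770. Leaving out 1 library gave 1254 to 2884 higher and 875 to 1946 lower genes. The lowest counts came without E10.5 replicate 2, when 2095 of 2129 called genes were also called with all libraries, in the same direction, and without E10.5 replicates 1 and 3 there were 1272 and 1378 higher genes.

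The WT count ran from 5139 to 8305 and that of the interaction from 150 to 1433, the latter without E9.25 WT replicate 1 and the former without E10.5 anterior *Gli3*-/- replicate 3. Sample quality weights gave 830 interactions. With the replicate block, 138 interactions, 2336 higher and 1488 lower genes were called. Deviations from the group means were not shared by equal numbers at the 2 stages (r = 0.054, 0.147 and -0.085 across genes), so that the numbers were not taken to pair the samples. Medians were above 0 in 21 of 34 lists, and in 17 to 22 when 1 library was left out and 16 after centring. The medians of the limb mesenchyme, ectoderm, erythroid, retinoic acid, replication and nuclear respiratory lists changed sign under some scaling. Levels below about 1 TPM limit what can be said of *Shh*, *Hoxd12* and the leukocyte genes at E9.25, and no counting intervals can be given without counts.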
